A study of Mus musculus with 12 samples.

Results

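The 10 genes B2m, H2-K1, H2-D1, Tap1, Tap2, Tapbp, Psmb8, Psmb9, Psmb10 and Nlrc5 were taken by their symbols from the 28591 genes measured in the RPE of WT and rd6 mice. They encode class I major histocompatibility complex (MHC) molecules, the machinery that loads them with peptide, the inducible catalytic subunits of the proteasome, and a transcriptional coactivator of these genes. All 10 were found, and all 10 passed the limit on low values (a mean of at least 10 normalized counts). The RPE of 6 WT mice (labelled C57BL/6J) and 6 rd6 mice (Mfrp rd6/rd6) was profiled by RNA sequencing, all at 1 mo of age and with no treatment in either group. The rd6 allele is a natural mutation of Mfrp, a gene for a membrane protein of the RPE and ciliary epithelium, and it is carried in the germ line. The background of the rd6 mice is not given in the labels, and it is not stated whether WT and rd6 mice were littermates. Each library holds total RNA from the RPE of both eyes together. The RPE came from eyecups whose front part and neural retina had been dissected away, and cells next to the RPE can be carried along.

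MHC class I molecules show short peptides of the cell's own proteins to CD8 T cells and are ligands for receptors of natural killer cells. The peptides come from the proteasome, whose 3 constitutive catalytic subunits can be replaced by the immunosubunits Psmb8, Psmb9 and Psmb10, and they are carried into the endoplasmic reticulum by the Tap1 and Tap2 transporter, where tapasin (Tapbp) holds the empty heavy chain close to it. Interferon-gamma is the classical inducer of the whole set, and Nlrc5 acts on a shared arrangement of promoter elements known as the SXY module, in which the X boxes are bound by the RFX complex and by CREB or ATF proteins and the Y box by NF-Y. The RPE forms part of the blood-retina barrier and is known for low class I display at rest and for its increase under interferon-gamma.

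The X2 and Y letters of the SXY module can be read in the reference promoters of 3 members, and these stretches are shown because B2m and both classical heavy chains have the letters in the same layout. The S and X1 boxes were not searched. A window from 250 bases before to 50 bases after the start (RefSeq, GRCm38.p6) was given for 8 of the 10 members, all except Nlrc5 and Tap2. The 180 bases before the start are printed 5′ to 3′ for B2m (chr2:122147507-122147686, + strand), H2-K1 (chr17:34000348-34000527, - strand) and H2-D1 (chr17:35262914-35263093, + strand). Capitals mark letters of an interferon regulatory factor element (AANNGAAA, on either strand), of the NF-kB consensus, of the core of the X2 box (TGACG) and of the Y box (ATTGG, the CCAAT box on the other strand). H2-D1 also holds a CCAAT box on the printed strand, in capitals, which is not the Y box.
B2m: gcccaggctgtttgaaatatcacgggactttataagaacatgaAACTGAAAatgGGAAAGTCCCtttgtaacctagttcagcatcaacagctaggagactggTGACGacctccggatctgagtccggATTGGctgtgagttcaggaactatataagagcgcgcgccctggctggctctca
H2-K1: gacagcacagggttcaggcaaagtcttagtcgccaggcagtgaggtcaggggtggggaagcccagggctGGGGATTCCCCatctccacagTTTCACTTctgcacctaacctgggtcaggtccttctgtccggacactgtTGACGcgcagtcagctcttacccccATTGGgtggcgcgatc
H2-D1: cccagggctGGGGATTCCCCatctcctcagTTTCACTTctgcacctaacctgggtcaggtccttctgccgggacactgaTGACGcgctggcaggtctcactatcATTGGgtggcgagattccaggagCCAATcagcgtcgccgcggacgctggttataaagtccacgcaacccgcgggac

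In all 3 promoters exactly 20 bases lie between TGACG and ATTGG. Over the whole table, letters of these boxes at 18 to 22 bases from each other on either strand were found for 80 of 27025 genes (0.296%), and at exactly 20 bases for 27 genes (0.0999%). The range of the spacing was set after these promoters had been read, so the shares describe how rare the layout is and are no test of it. Among the 14 other class I heavy chains in the promoter table, H2-M3 and H2-Q7 hold the same pair of boxes, printed here from the X2 to the Y letters.
H2-M3: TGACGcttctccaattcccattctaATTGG
H2-Q7: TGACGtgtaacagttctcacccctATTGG
In H2-M3 (chr17:37270188-37270217, + strand) the boxes are 20 bases apart and in H2-Q7 (chr17:35439091-35439119, + strand) they are 19 bases apart.

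The single boxes are common. TGACG occurs on either strand in the windows of 23% of genes and of 5 of the 8 members (B2m, H2-K1, H2-D1, Tap1 and Psmb9), and the CCAAT box in those of 41.1% of genes and 6 of the 8 members, the same 5 and Tapbp. The NF-kB consensus is found in the windows of 9.55% of genes and the interferon regulatory factor element in those of 26.7%, and among the members each is found in B2m, H2-K1 and H2-D1. The longer interferon-stimulated response element core (GAAANNGAAA), which contains the letters of the shorter element, occurs in the windows of 3.99% of genes and among the members in B2m only. The windows of Psmb8 and Psmb10 hold none of these letters, which says nothing about the rest of these genes' regulatory sequence. Tap1 and Psmb9 lie head to head, and 225 bases separate their RefSeq starts (chr17:34187331-34187555, printed on the + strand, the strand of Tap1). They are shown because a single stretch serves as the upstream sequence of both genes, with 1 CCAAT box and 1 TGACG in capitals.
Tap1 and Psmb9: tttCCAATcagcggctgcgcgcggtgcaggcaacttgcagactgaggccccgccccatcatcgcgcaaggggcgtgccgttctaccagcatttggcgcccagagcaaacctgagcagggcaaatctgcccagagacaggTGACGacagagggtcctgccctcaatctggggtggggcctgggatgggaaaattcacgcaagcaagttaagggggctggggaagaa

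**Figure D1:**
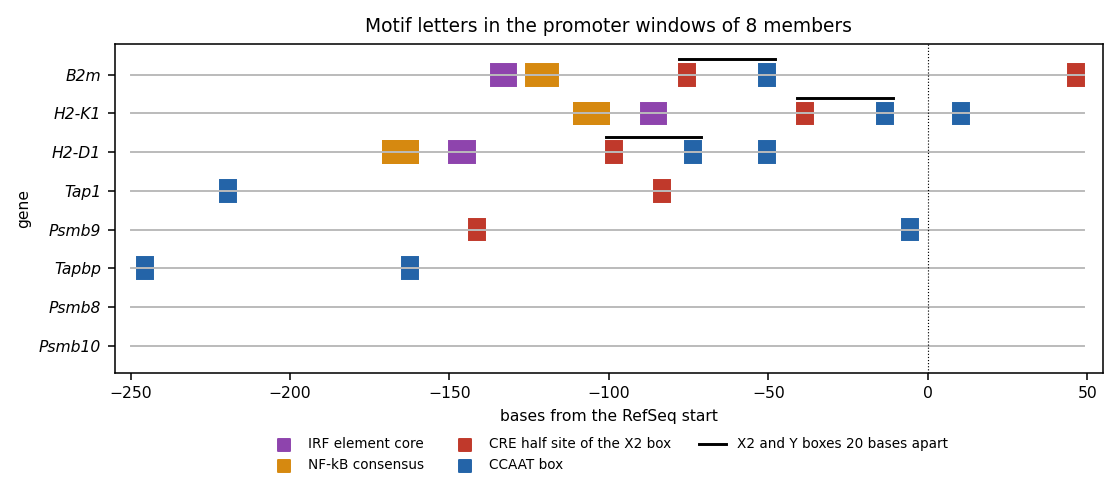
Motif letters in the promoter windows of 8 members, with the distance in bases from the RefSeq start on the x axis and a row for each gene; boxes mark the letters of the interferon regulatory factor element, the NF-kB consensus, the X2 core and the CCAAT box on either strand. The black bar marks X2 and Y letters 20 bases apart, which are seen in B2m, H2-K1 and H2-D1 alone among the members.

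All 10 members were higher in rd6 than in WT at q below 0.05, from 1.38-fold for B2m to 2.88-fold for Nlrc5 (limma on log2(normalized count + 1), Benjamini-Hochberg over 17768 genes, n = 6 per group). Among all genes tested, 11.4% were higher and 11.6% lower at this limit. With a log2 fold change of at least 0.807 as a second limit, 6 of the 10 members remained (H2-K1, H2-D1, Tap1, Psmb8, Psmb9 and Nlrc5), against 4.69% of all genes. In 7 of the 10 the lowest rd6 library exceeded the highest WT library, against 5.77% of all genes, and in Tap1, Psmb8 and Psmb9 the groups overlapped, each time through WT replicate 4. The median log2 fold change was 1.01 over the members and 0.00 over all genes tested. The normalized read counts rest on 28907262 to 33152725 reads on genes per library, and 1 read was worth 0.903 to 1.11 normalized counts, so that even the rarest member, Nlrc5, was counted with 15 to 103 reads. In bulk RNA, more cells of a type and more RNA per cell cannot be told apart. Mfrp itself, whose rd6 transcript is still made, had 30132 to 45442 normalized counts in WT and 20442 to 29732 in rd6 (log2 fold change -0.63, SE 0.11, limma q = 0.00126), in the direction of the labels.

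**Figure D2:**
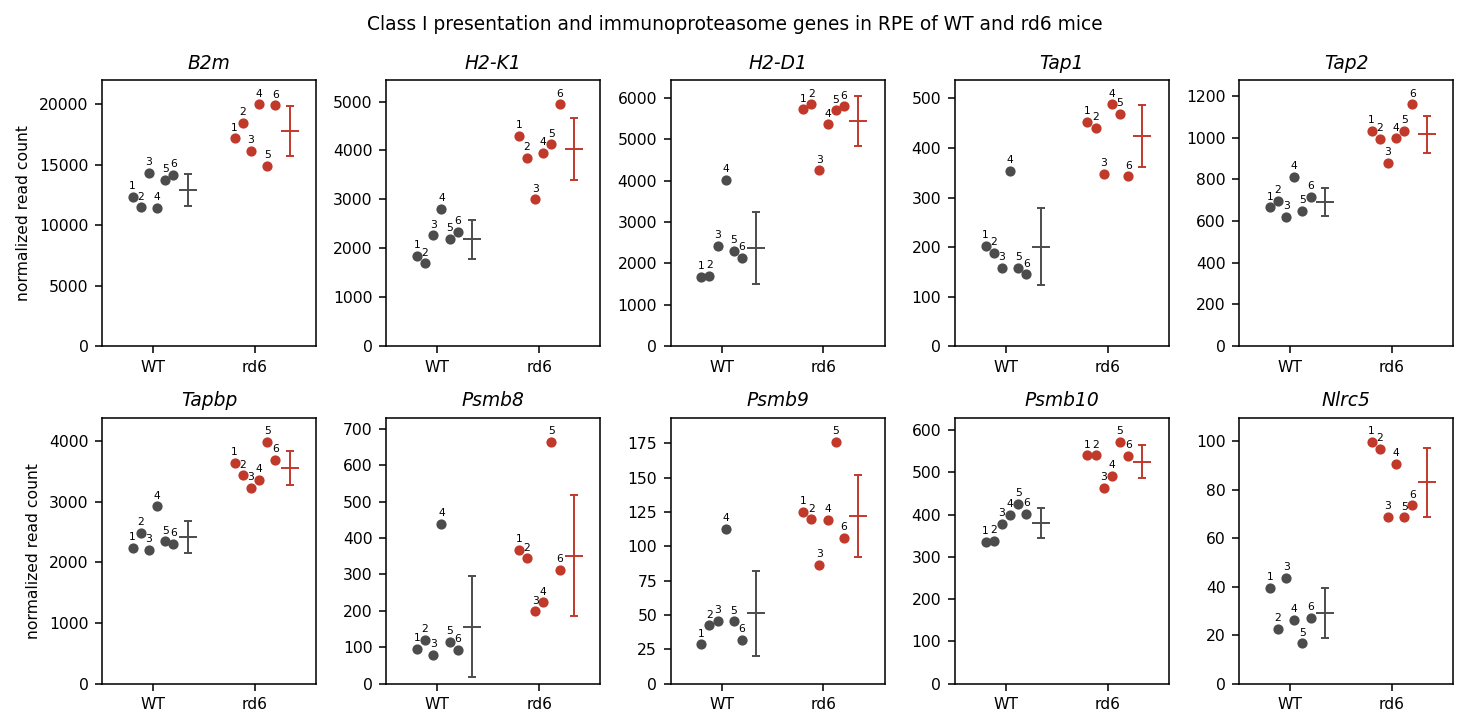
Normalized read counts of the 10 members in each library (points, numbered by replicate, n = 6 per group), with the mean and SD beside them; each y axis starts at 0 and has its own scale. In 7 members the rd6 points lie above all WT points, and in Tap1, Psmb8 and Psmb9 WT replicate 4 reaches into the rd6 range.

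The molecules at the cell surface come first. B2m (ENSMUSG00000060802, chromosome 2, 122147686 to 122153083, + strand), the light chain that every class I heavy chain needs, had 11422, 13025 and 14305 normalized counts (lowest, median and highest) in WT and 14910, 17809 and 19969 in rd6. The groups did not overlap, although the rise was small (log2 fold change 0.46, SE 0.09, limma q = 0.00246). The annotation places Patl2 on the other strand over B2m, but no 100-base window of the longest B2m transcript is shared with another gene.

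H2-K1 (ENSMUSG00000061232, chromosome 17, 33996017 to 34000347, - strand), a classical heavy chain that presents peptide to CD8 T cells, had 1691, 2224 and 2808 normalized counts in WT and 2998, 4037 and 4940 in rd6. It rose by 0.89 (SE 0.13, limma q = 0.000376) on the log2 scale. H2-D1 (ENSMUSG00000073411, chromosome 17, 35262730 to 35267499, + strand), the second classical heavy chain, had 1675, 2218 and 4013 normalized counts in WT and 4254, 5714 and 5847 in rd6, a log2 fold change of 1.25 (SE 0.18, limma q = 0.000314). The highest WT value of both genes was that of replicate 4, and the lowest rd6 value of both was that of replicate 3. Of the longest H2-D1 transcript 4.64% of the 100-base windows are shared with other genes, above all H2-Q1, and none of H2-K1, so a small share of the H2-D1 reads could belong to its relatives.

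Per kb of exon, B2m was the most abundant member in WT with 15000 ± 1540 normalized counts per kb (SD, n = 6), followed by H2-D1 with 921 ± 334 and H2-K1 with 744 ± 134. In rd6 the levels per kb were 20640 ± 2386 for B2m, 2113 ± 236 for H2-D1 and 1371 ± 216 for H2-K1. Set against the B2m level per kb, H2-D1 was 6.14% in WT and 10.2% in rd6, and H2-K1 4.96% in WT and 6.64% in rd6. With these lengths the order of all 10 levels per kb was the same in both genotypes: B2m, H2-D1, H2-K1, Tapbp, Psmb10, Tap2, Psmb8, Tap1, Psmb9 and Nlrc5. The lengths cover all annotated exons of a gene, 2938 bases for H2-K1 and 2579 for H2-D1. The longest coding transcripts have 1619 and 2102 bases, so the order and the levels set against B2m depend on the length chosen. The ranges of H2-D1, H2-K1 and Tapbp overlapped from each gene to the next in both genotypes, as did those of Psmb10 and Tap2 and those of Psmb8 and Tap1. Tap1 and Psmb9 overlapped in WT but not in rd6. Nlrc5 was the rarest, with 3.45 ± 1.21 in WT and 9.78 ± 1.69 in rd6.

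In peptide transport, Tap1 and Tap2 form together the pump in the membrane of the endoplasmic reticulum, and their RNA rose by different amounts. Tap1 (ENSMUSG00000037321, chromosome 17, 34187553 to 34197225, + strand) had 145, 174 and 354.5 normalized counts in WT and 343, 446 and 488 in rd6. Only WT replicate 4 reached the rd6 range, 4 of the 6 rd6 libraries lay above it, and the log2 fold change was 1.13 (SE 0.19, limma q = 0.00112). Tap2 (ENSMUSG00000024339, chromosome 17, 34203527 to 34216321, + strand) had 618, 681 and 812 normalized counts in WT and 879, 1014 and 1159 in rd6, without overlap (log2 fold change 0.55, SE 0.08, limma q = 0.000217). The difference between the log2 fold changes of these genes was not tested. Tapbp (ENSMUSG00000024308, chromosome 17, 33915899 to 33929292, + strand), which bridges the transporter and the heavy chain, had 2212, 2324 and 2924 normalized counts in WT and 3228, 3538 and 3989 in rd6 (log2 fold change 0.56, SE 0.07, limma q = 0.000142). Of the Tapbp transcript's windows 14.04% are shared with other genes, nearly all with the antisense gene Gm19412, and no source used here says if reads were counted by strand. The same holds for 5.35% of the Tap2 windows (Gm15821 and Gm20496), and Tap1 and Psmb9 share 113 windows at their overlapping ends, 3.96% of the Tap1 and 9.02% of the Psmb9 transcript.

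The 3 immunosubunits differed in how far their groups overlapped. Psmb10 (ENSMUSG00000031897, chromosome 8, 105935735 to 105938444, - strand), which takes the place of Psmb7, had 336, 389 and 425 normalized counts in WT and 464, 539.5 and 572.5 in rd6, without overlap (log2 fold change 0.47, SE 0.08, limma q = 0.000774). Psmb9 (ENSMUSG00000096727, chromosome 17, 34181987 to 34187764, - strand), which takes the place of Psmb6, had 28.6, 43.9 and 113 normalized counts in WT and 86.3, 119.5 and 176 in rd6 (log2 fold change 1.36, SE 0.29, limma q = 0.00444). As in Tap1, WT replicate 4 alone reached the rd6 range, and 4 of the 6 rd6 libraries lay above it.

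Psmb8 (ENSMUSG00000024338, chromosome 17, 34197721 to 34201454, + strand), which takes the place of Psmb5, had 79.9, 105 and 439 normalized counts in WT and 198, 329 and 665 in rd6. WT replicate 4, with 439, lay above 5 of the 6 rd6 libraries, and rd6 replicate 5 held the highest value. The log2 fold change of 1.34 (SE 0.40) passed with limma (q = 0.0274), but not with edgeR (q = 0.0801) or DESeq2 (q = 0.0619) on the recovered reads. Without WT replicate 4 and rd6 replicates 1, 2 and 5 the log2 fold change was 1.27 with limma q = 0.00163. Leaving out any 1 of 7 libraries (WT replicates 1, 2, 3 and 6 and rd6 replicates 1, 2 and 5) also ended the call (limma q = 0.0515 to 0.0621). None of the other 9 members lost its call under any of the alternatives that were run.

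Within a library, the ratio of an immunosubunit to the constitutive subunit it replaces does not depend on the scaling, and log2 ratios were tested. The size of a ratio depends on the exon lengths used, such as 3421 bases for Psmb7, whose longest coding transcript has 1160. The log2 difference between the genotypes does not depend on them. Psmb10 per kb of exon was 0.228 ± 0.0203 of Psmb7 in WT and 0.303 ± 0.0283 in rd6 (SD, n = 6), without overlap (exact permutation test over 924 splits, two-sided p = 0.00216, the smallest possible, adjusted over 3 ratios 0.00648). Psmb9 was 0.00818 ± 0.00512 of Psmb6 in WT and 0.0176 ± 0.00434 in rd6 (exact permutation p = 0.0108, adjusted 0.0162). Psmb8 was 0.0381 ± 0.0345 of Psmb5 in WT and 0.0797 ± 0.0386 in rd6 (exact permutation p = 0.0260, adjusted 0.0260), a call that ended when the ratios were compared on a linear scale (exact permutation p = 0.0758, not adjusted). WT replicate 4 had 0.108 for Psmb8 to Psmb5, above 5 rd6 libraries, while the other WT libraries had 0.0197 to 0.0311 and the lowest rd6 library 0.0461. Without WT replicate 3 or without rd6 replicate 5, the Psmb8 ratio no longer passed (exact permutation p = 0.0519 in both, not adjusted). The reads of Psmb5 and Psmb7 carry some uncertainty, since 24.88% of the windows of Psmb5 are shared with Gm3375 or Mir686 and 19.98% of those of Psmb7 with Nek6.

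**Figure D3:**
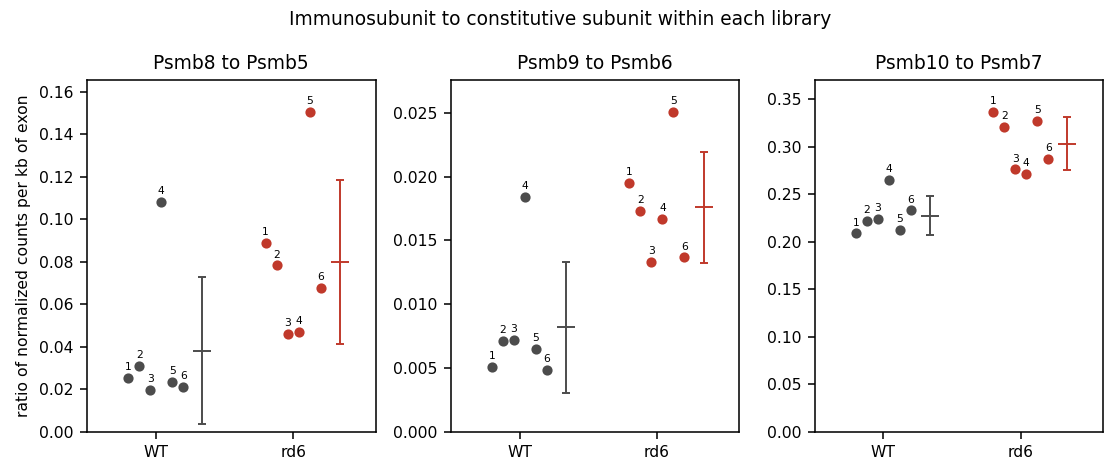
Ratio of each immunosubunit to its constitutive counterpart, in normalized counts per kb of exon, for each library (points, numbered by replicate) with the mean and SD (n = 6 per group). For Psmb10 to Psmb7 the rd6 libraries lie between 0.271 and 0.336 and the WT libraries between 0.209 and 0.265; for the other 2 ratios WT replicate 4 lies within the rd6 range.

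Nlrc5 (ENSMUSG00000074151, chromosome 8, 94434356 to 94527272, + strand), the coactivator of class I genes, had the lowest level of the members per kb and rose in every alternative that was run. It had 16.6, 26.6 and 43.6 normalized counts in WT and 68.6, 82.1 and 99.8 in rd6, without overlap (log2 fold change 1.53, SE 0.22, limma q = 0.000351). No 100-base window of its transcript is shared with another gene. In contrast to Psmb8, Psmb9 and Tap1, Nlrc5 was not high in WT replicate 4, where it had 26.2.

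The proteins that act with Nlrc5 at the SXY module, and the class II coactivator Ciita, did not pass as higher at q below 0.05 with limma. Of the 9 genes of this list, all tested, 0 were higher, 2 were lower and 7 passed in neither direction (median log2 fold change -0.01), and Ciita alone was higher at an unadjusted limma p below 0.05. Creb1, which binds the X2 box, fell by 0.27 (SE 0.06, limma q = 0.00565), and Nfya, a subunit of NF-Y, fell by 0.20 (SE 0.07, limma q = 0.0496). The Nfya call ended without any 1 of 10 libraries, all but WT replicate 1 and rd6 replicate 6 (limma q of at least 0.0565). Ciita had 6.80, 8.5 and 16.6 normalized counts in WT and 9.03, 17.2 and 26.7 in rd6 (log2 fold change 0.81, SE 0.28, limma q = 0.0536). It lay close to the limit, and passed with edgeR (q = 0.0429), with TMM rescaling (limma q = 0.0489), without WT replicate 5 (limma q = 0.0225), without rd6 replicate 5 (limma q = 0.0165) and without WT replicate 4 and rd6 replicate 5 (limma q = 0.0247), but not with DESeq2 (q = 0.0566).

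Beside the members, the class I pathway was described by 11 lists of related genes. Of their 114 genes tested, 27 (23.7%) were higher and 4 (3.51%) lower, beside 11.4% and 11.6% of all genes. The number of lower genes was 7 with DESeq2 and 2 without WT replicate 4 and rd6 replicates 1, 2 and 5.

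Of 20 other class I heavy chains, 14 were in the table and 10 were tested, of which 8 were higher, 1 lower and 1 neither (median log2 fold change 0.86). H2-Q6 and H2-Q7, both of the Qa region, rose by 1.42 (SE 0.34, limma q = 0.00889) and 1.21 (SE 0.27, limma q = 0.00612), and H2-T24 by 1.22 (SE 0.17, limma q = 0.000213). H2-Q6 and H2-Q7 share 166 windows with each other, so their reads cannot be fully told apart. Without WT replicate 4 and rd6 replicates 1, 2 and 5 the number of higher heavy chains fell from 8 to 5 (H2-Q4, H2-Q7, H2-T23, H2-T24 and H2-M3), since H2-Q6 (log2 fold change 1.53, limma q = 0.0548) and H2-T22 (log2 fold change 0.21, limma q = 0.118) lost their calls and H2-Q1 no longer passed the limit on low values. H2-M3, chosen for its promoter after its values were seen, had 56, 71.3 and 92.3 normalized counts in WT and 117, 129 and 150 in rd6 (log2 fold change 0.85, SE 0.13, limma q = 0.000434). H2-M5 went the other way, with 335.5, 492 and 1249 in WT and 169, 225 and 274 in rd6, and fell by 1.36 (SE 0.29, limma q = 0.00448).

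Of 11 class I-like molecules, 9 were tested, 1 was higher and 1 lower. Fcgrt, the neonatal Fc receptor, which pairs with B2m and recycles IgG and albumin, had 1132, 1296 and 1470 normalized counts in WT and 1865, 2047 and 2568 in rd6 (log2 fold change 0.71, SE 0.08, limma q = 5.54e-05). Mr1, which presents vitamin B metabolites, fell by 0.23 (SE 0.06, limma q = 0.0101), a call lost without WT replicate 4 and rd6 replicates 1, 2 and 5 (q = 0.122).

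Of 16 genes of peptide loading and trimming, 3 were higher and 13 passed in neither direction (median log2 fold change 0.04). Tapbpl, a tapasin-related editor of bound peptides, rose by 0.50 (SE 0.12, limma q = 0.0121), the aminopeptidase Lap3 by 0.39 (SE 0.10, limma q = 0.0138) and Erap1, which trims peptides in the endoplasmic reticulum, by 0.28 (SE 0.06, limma q = 0.0035). Lnpep and Npepps, aminopeptidases named after their values were seen, had log2 fold changes of -0.64 (SE 0.26, limma q = 0.0906) and -0.20 (SE 0.07, limma q = 0.0544), and both were lower with DESeq2 (q = 0.0276 and 0.0456).

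Among the constitutive catalytic subunits, Psmb5, Psmb6 and Psmb7 had log2 fold changes of 0.10 (SE 0.07, limma q = 0.335), 0.15 (SE 0.06, limma q = 0.102) and 0.06 (SE 0.07, limma q = 0.599). Of the 11 tested genes for other subunits of the 20S core, 2 were higher (Psma5 and Psma4, by 0.35 and 0.20), and neither call remained without WT replicate 4 and rd6 replicates 1, 2 and 5 (log2 fold change 0.22 for each, limma q = 0.280 and 0.0585). Psma5 also lost its call without any 1 of 10 libraries, all but WT replicate 5 and rd6 replicate 4 (limma q = 0.0540 to 0.0917). Of 21 genes of the 19S regulatory particle only Psmd12 was higher (log2 fold change 0.17, SE 0.05, limma q = 0.0320). The interferon-inducible PA28 activator subunits Psme1 and Psme2 were the 2 of 9 assembly and activator genes that rose, by 0.36 each (SE 0.09, limma q = 0.0119, and SE 0.11, limma q = 0.0269). The calls of Psmd12 and Psme2 ended when WT replicate 1 or 2 or rd6 replicate 4, 5 or 6 was left out, and that of Psmd12 also without WT replicate 3 (limma q = 0.0506 to 0.0698). Psmd12 did not pass without WT replicate 4 and rd6 replicate 5 (limma q = 0.0706) or without WT replicate 4 and rd6 replicates 1, 2 and 5 (log2 fold change 0.20, limma q = 0.0969) either.

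**Figure D4:**
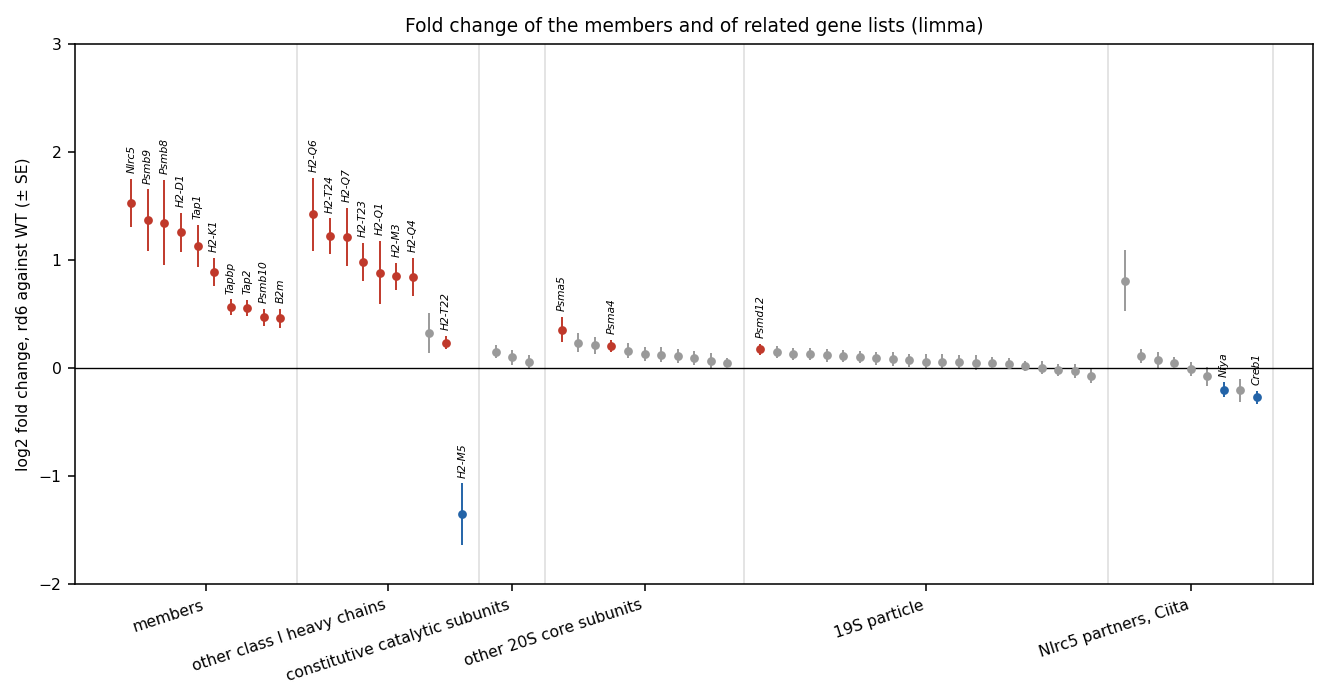
Log2 fold change in rd6 (relative to WT) and standard error for the members and for the tested genes of 5 related lists (limma, 6 libraries per group); red and blue points were higher and lower at q below 0.05, grey points passed in neither direction. All 10 members are red, the 3 constitutive catalytic subunits are grey, and the 21 genes of the 19S particle lie between -0.08 and 0.17.

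Of 14 interferon and NF-kB regulators of class I genes, 5 were higher and 9 passed in neither direction (median log2 fold change 0.46). Irf8, known from myeloid cells, had 36.5, 52.3 and 57.3 normalized counts in WT and 117, 226 and 251.5 in rd6 (log2 fold change 1.98, SE 0.20, limma q = 1.4e-05). Stat3 had 2076, 2196 and 2563 in WT and 4424, 4719 and 5038 in rd6 (log2 fold change 1.08, SE 0.05, limma q = 3.93e-08). Irf9, the DNA-binding subunit of the type I interferon response complex, rose by 0.58 (SE 0.07, limma q = 0.00013). Irf1, an inducer of Psmb9 and Tap1 singled out after its values were seen, had 254 to 292 normalized counts in 5 WT libraries, 1304 in WT replicate 4, and 383, 620 and 1121 (lowest, median and highest) in rd6. It did not pass over all 12 libraries (log2 fold change 0.89, SE 0.40, limma q = 0.126), and did so without WT replicate 4 and rd6 replicates 1, 2 and 5 (log2 fold change 0.81, q = 0.00143).

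Of 18 interferon ligands and receptors with their kinases and inhibitors, 11 were in the table, 10 were tested and 3 were higher. Socs3, a feedback inhibitor of cytokine signaling, rose by 2.01 (SE 0.26, limma q = 0.000137), Ifngr2 by 0.53 (SE 0.12, limma q = 0.00654) and Ifnar2 by 0.50 (SE 0.09, limma q = 0.00181). Ifng itself was counted with at most 1 read in any library, below the floor of 3 reads. Of 16 receptors of T, natural killer and myeloid cells, listed for binding class I, 2 had a mean of 10 or more, and both were higher. Lilrb4a and Pirb, inhibitory receptors of myeloid cells of which Pirb is the one known to bind class I in the mouse, rose by 1.49 (SE 0.33, limma q = 0.0056) and 0.76 (SE 0.24, limma q = 0.0401), and the call of Pirb was lost with edgeR (q = 0.0578) and without any 1 of 9 libraries, all but WT replicates 1, 3 and 6 (limma q = 0.0566 to 0.0751). Cd8a had at most 4 reads in any library.

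Some lists of cell type markers were higher in rd6 and others were not. Of 22 markers of microglia and macrophages 21 were higher in rd6, all but Csf1r, which had 12921 to 18698 normalized counts in WT and 16200 to 20851 in rd6. All 22 summed to 18975, 23038 and 26702 (lowest, median and highest) in WT and to 39152, 59014 and 69682 in rd6, and the 21 without Csf1r, left out because it did not rise, to 4508 to 8419 in WT and 21616 to 48830 in rd6. Of 10 endothelial markers 8 were higher, with sums of 6979 to 13385 in WT and 11786 to 26518 in rd6, but only 1 (Flt1) without WT replicate 4 and rd6 replicates 1, 2 and 5. Of 6 B cell markers 1 of 2 tested (Ighm) and of 7 dendritic cell markers 2 of 3 tested (Itgax and Siglech) were higher, with sums of 42.1 to 90.9 in WT and 95 to 266 in rd6 for B cells and of 181 to 273 in WT and 306 to 474 in rd6 for dendritic cells. Of 16 T and NK cell markers 2 were tested and neither was called with limma (Il2rb was higher at an unadjusted p below 0.05, and 1 was called by edgeR), and the sum of all 16 was 49.5 to 78.7 in WT and 47.7 to 156 in rd6. Of 12 RPE markers 3 were lower (Rpe65, Rlbp1 and Lrat) and 9 passed in neither direction, and they summed to 1038711 to 1553083 in WT and 1143627 to 1490120 in rd6, of which Ttr alone made up 543596 to 998217. Of 10 rod markers 4 were lower with limma, 2 with edgeR and 3 with DESeq2, and of 9 markers of choroidal stroma and mural cells 1 was lower. How much of the members' rise comes from microglia, macrophages or endothelium was not tested.

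WT replicate 4 stood apart in more than the members. Markers of the ocular surface epithelium, a list chosen after the data had been seen, were highest there (Krt5 63798 and Krt12 69564 normalized counts), and their sum over 10 markers was 218123 in WT replicate 4, 132576, 72885 and 27242 in rd6 replicates 5, 1 and 2, and 30.1 to 15845 in the other libraries. None of the 10 differed between the genotypes at q below 0.05 with limma, edgeR or DESeq2, or at an unadjusted limma p below 0.05, and the sums overlapped widely. Their median log2 fold change was still 2.35, and the median sum was 3441 in WT and 15742 in rd6, so the amounts were not even. In log2 units against the WT mean, the members of WT replicate 4 lay at 1.78 for Psmb8, 1.28 for Psmb9, 0.89 for Tap1, 0.82 for H2-D1, 0.38 for H2-K1, 0.28 for Tapbp, 0.23 for Tap2, 0.08 for Psmb10, -0.08 for Nlrc5 and -0.17 for B2m. Among the rd6 libraries, replicate 5 lay at 1.03 for Psmb8 and 0.56 for Psmb9 against the rd6 mean, and at -0.24 for B2m and -0.25 for Nlrc5. Replicate 3 lay below the rd6 mean for all 10 members, at -0.31 on average.

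**Figure D5:**
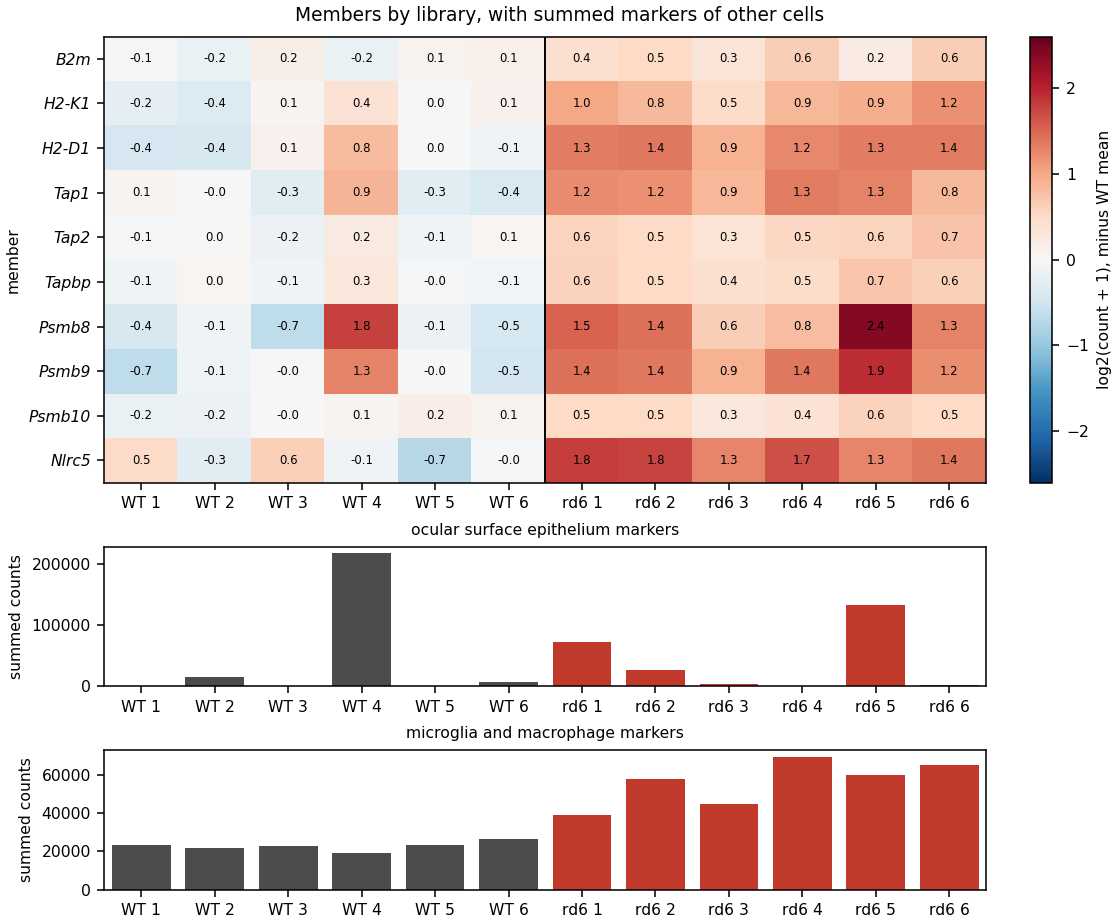
Members by library as log2(normalized count + 1) minus the WT mean (color and printed value), above bars of the summed normalized counts of 10 ocular surface epithelium markers and of 22 microglia and macrophage markers. WT replicate 4 has the highest ocular surface sum (218123) and the reddest WT column, and all rd6 libraries exceed all WT libraries in the microglia and macrophage sum (39152 to 69682 against 18975 to 26702).

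The result was recomputed without these libraries. All 10 members stayed higher at q below 0.05 without WT replicate 4 and rd6 replicate 5, and also without WT replicate 4 and rd6 replicates 1, 2 and 5, with log2 fold changes from 0.41 (Psmb10) to 1.42 (Nlrc5) in the smaller set. Psmb8 then had limma q = 0.00163 and Psmb9 q = 0.00189.

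The genes whose deviations from the genotype means were most like those of the members were Parp14, Anp32-ps, Kmt5a, Dbnl and Ppp2r1b, with Pearson r from 0.935 to 0.948 with the members' mean deviation over the 12 libraries, among 12866 genes. WT replicate 4 carries much of that likeness, and without it r was 0.819 to 0.848. Parp14 had 170.5 to 217 normalized counts in 5 WT libraries, 445 in WT replicate 4, and 339 to 474 in rd6, and rose by 0.91 (SE 0.20, limma q = 0.00642). Ppp2r1b rose by 0.51 (SE 0.12, limma q = 0.00726) and Anp32-ps fell by 0.29 (SE 0.10, limma q = 0.0443, lost without any 1 of 10 libraries, all but WT replicate 5 and rd6 replicate 5), while Kmt5a and Dbnl, not called, had log2 fold changes of -0.03 (SE 0.11, limma q = 0.870) and 0.07 (SE 0.08, limma q = 0.546).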

How the data were processed

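RNA of 6 WT and 6 rd6 RPE samples was sequenced as read pairs of 100 cycles after a stranded total-RNA preparation. Alignment to mm10 and counting were done by the authors in Rsubread at standard parameters, and the deposited signal is the read count of a gene divided by the DESeq2 size factor of its library. The deposited fold change (log2), its standard error, test score and p-value columns of the authors' own comparison were not used. Versions of these tools and the use of strand in counting are not given in the sources used here.

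The table has 28596 entries for 28591 genes, and 5 repeated entries were dropped. Every value is a whole multiple of the value of 1 read (100% within 0.001 reads), so that reads could be recovered. No 2 libraries agreed within sampling noise (chi-square per gene of at least 9.45 in 66 pairs). The floor (3 reads) covers counting error only, while the SDs and SEs rest on the spread among libraries.

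The main test was limma 3.58.1 (R 4.3.3, mean-variance trend) on log2(value + 1) for the 17768 genes whose mean reached 10, with genotype as the only term and Benjamini-Hochberg adjustment over all of them (q). The added 1 understates the fold change of low genes. Tried beside it were a pseudocount of 0.1 or 10, all genes unfiltered, a minimum of 10 in each library, TMM rescaling, edgeR 4.0.16 and DESeq2 1.42.0 on the recovered reads, the replicate number as a block, and leaving out each library. Leaving out the libraries with a sum of ocular surface markers above 20000, or only the highest of each genotype, was added after seeing the data. Of the fits, only that of limma was run on simulated counts, which had a fixed dispersion and no outlying library, and no value from it is quoted. Log2 ratios were tested with exact permutation tests (scipy 1.17.1). Positions, exon lengths and transcripts are from GENCODE M21 (GRCm38), promoters from RefSeq (GRCm38.p6).

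The members and lists were chosen with earlier results of these data known, so their counts are descriptions. Genes named are the members, the constitutive subunits, up to 3 rises and 3 falls per related list among called genes, all genes of lists with at most 3 tested, Ciita, and the 5 genes most like the members. With their values already known, these names were added: H2-M3, Lnpep, Npepps, Irf1, Ifng, Cd8a and the markers named.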

Additional observations from a re-analysis of the deposited data

Results flagged for a closer look

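Of 26 groups of 6 values (10 members and 3 ratios in each genotype), 8 held a value whose gap to its neighbor was large against the whole range (Dixon's criterion), where chance flags about 1 in 20 independent groups. These groups are not independent, since they share libraries and the ratios use Psmb8, Psmb9 and Psmb10 again. The number flagged is therefore a description and no test. WT replicate 4 accounted for 6 of them, always as the highest: H2-D1 with 4013 normalized counts (next highest 2435), Tap1 with 354.5 (202), Psmb8 with 439 (120), Psmb9 with 113 (45.6), the Psmb8 to Psmb5 ratio with 0.108 (0.0311) and the Psmb9 to Psmb6 ratio with 0.0184 (0.00718). The others were Psmb8 in rd6 replicate 5, highest with 665 (368), and H2-D1 in rd6 replicate 3, lowest with 4254 (5365). WT replicate 4 and rd6 replicate 5 also had the highest sums of ocular surface epithelium markers of their genotypes (218123 and 132576 normalized counts). The part of these cells in the values was not tested.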

How the results depend on the processing

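Of the 220 values of the 10 members under 22 alternatives, 210 kept their direction and call and 10 kept the direction only, all 10 of them of Psmb8 (log2 fold change 1.14 to 1.34, highest q 0.0801). The number of members higher was 9 with edgeR, DESeq2 and the replicate block, 9 to 10 when any one library was left out, and 10 otherwise. For the related lists the block gave 23 higher and 4 lower genes (5 in place of 8 higher heavy chains), leaving out one library gave 22 to 33 and 3 to 6, DESeq2 gave 7 lower genes, and leaving out WT replicate 4 and rd6 replicates 1, 2 and 5 gave 20 higher and 2 lower. With the replicate block the log2 ratio differences of 1.26 (Psmb8 to Psmb5) and 1.24 (Psmb9 to Psmb6) did not pass (exact permutation p = 0.0625 each, not adjusted, where the smallest possible was 0.0312), and after adjustment the Psmb10 to Psmb7 ratio did not pass either (0.0625). On a linear scale the Psmb8 ratio difference of 0.0416 did not pass either (exact permutation p = 0.0758, not adjusted). Leaving out one library gave log2 differences of 1.05 to 1.62, 1.12 to 1.51 and 0.38 to 0.46 for Psmb8, Psmb9 and Psmb10. Of 724 values of 33 other named genes, 637 kept direction and call, 77 kept the direction but lost the call, 6 gained it and 4 reversed, all 4 of Kmt5a, which was not called (-0.066 to 0.081 when any one library was left out, 0.076 without WT replicate 4 and rd6 replicate 5, and 0.025 without WT replicate 4 and rd6 replicates 1, 2 and 5). The causes were not tested. For all genes higher and all genes lower, edgeR on the recovered reads gave 1981 and 2085 calls, and limma on the deposited values 2024 and 2062. The replicate block also ended the calls of Psmb8 (q = 0.0650), H2-Q6 (q = 0.0577), Pirb (q = 0.110), Lap3, Nfya, Psme2 and Anp32-ps. The numbers do not pair the libraries: same-numbered libraries deviated from their group means with a mean correlation of -0.245 (from -0.743 to 0.315), and 0 of 12 correlated best with their own number. A minimum of 10 in every library left Ciita and Lilrb4a untested.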
